A study of Caenorhabditis elegans with 15 samples.

Results

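The comparison described here set C. elegans embryos that had developed for 4 h against embryos taken at the 2- to 4-cell stage (0 h). Each time had 3 Affymetrix C. elegans arrays, named A, B and C, which are 6 of the 15 arrays of a time course sampled each hour. The samples were chosen by the hour in their titles and not by any measured value. All 22548 probe sets that are not controls of the array were used, of 22625 in all, and they stood for 17138 genes. Embryos of both groups were dissected from wild-type N2 hermaphrodites injected with dsRNAs for the 3 genes pal-1, mex-1 and lit-1, and then kept at room temperature. The injection is therefore shared by every sample of both groups, and embryos from uninjected mothers were not analysed here. Of these genes, lit-1 makes a kinase of Wnt signalling, pal-1 a Caudal-type homeobox factor and mex-1 a maternal RNA-binding protein, and each helps to set founder cells of the early embryo apart. By its title the series is about cell fate in the lineage of the MS blastomere, a source of pharynx and body wall muscle. The net change is described below for gene families and functions other than mesoderm regulators, maternal messages as a class and cytosolic ribosomal proteins.

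As background, a C. elegans embryo starts with RNA that the mother packed into the oocyte, and its own genome is switched on within the first cleavages. Maternal RNAs are then removed on different schedules, many of them first in the somatic cells. Several protein families have one member made in the germ line and another made in the body, so a family can change its makeup while its function stays present. Proteins are marked for removal by ubiquitin ligases, in which an F-box protein picks the target, a Skp1-related protein joins it to a cullin, and the proteasome degrades the marked protein.

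The material was checked against marker genes. All 7 markers of the early embryo (pie-1, mex-5, mex-6, glp-1, pos-1, oma-1 and cpg-2) fell, and their mean level lay between 8.81 and 9.70 on the 0 h arrays and between 4.28 and 4.50 on the 4 h arrays (log2). Of 5 zygotic markers 0 passed limma's test, with pha-4 at 4.60, 4.01 and 4.19 at 0 h and 6.31, 5.64 and 6.30 at 4 h (adjusted p = 0.119, but 0.00439 with the 6 arrays of 0 h and 4 h fitted alone). The others differed by less, hlh-1 by 0.72, sdz-1 by 0.14, elt-7 by 0.06 and pes-10 by -0.07 (adjusted p from 0.192 to 0.932). The mean of 4 measured yolk protein genes of the mother's gut lay between 3.64 and 4.73 at 0 h and between 3.19 and 3.50 at 4 h, with 0 called. The 26 sperm markers had a mean level between 3.64 and 3.84 at 0 h and between 4.24 and 4.32 at 4 h. Among them 2, gsp-4 and msp-63, were called higher, both with means below the background mark of 3.71 at both times and with calls that ended without single arrays (gsp-4 without any but 4 h C, msp-63 without 0 h A, 0 h C, 4 h B or 4 h C, adjusted p from 0.0529 to 0.13). Of the 2 muscle myosin genes myo-3 stayed below that mark and unc-54 above it, from 3.91 ± 0.06 to 4.19 ± 0.10 (log2, SD, n = 3), with 0 called. Of 3 neuron markers unc-119 was called higher, by 1.73 ± 0.40 (SE, adjusted p = 0.00808), a call that ended under the time tags of 1 h B and 1 h C and with arrays centred on added control RNAs (adjusted p = 0.114 and 0.343), and snb-1 and rab-3 were not called. The injected genes were measured in every sample: mex-1 read 4.02, 4.50 and 5.37 at 0 h and 4.70, 6.50 and 5.74 at 4 h, lit-1 3.96, 3.86 and 3.70 at 0 h and 4.59, 4.02 and 4.39 at 4 h, and pal-1 6.99, 7.45 and 5.09 at 0 h and 5.85, 8.24 and 7.30 at 4 h. None of these 3 passed the test, at adjusted p = 0.338, 0.0738 and 0.648 (lit-1 passed at 0.0238 without 4 h B), and since both groups received the dsRNA these levels cannot show its effect. Over probe sets, which are no replicates of each other, arrays correlated at 0.973 on average within 0 h, 0.966 within 4 h and 0.815 between the times.

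Of the 17138 genes, 1213 (7.08%) were higher and 1664 (9.71%) lower at 4 h, 2877 (16.8%) in all, by limma at a Benjamini-Hochberg adjusted p under 0.05. Of the probe sets themselves, 1603 (7.11%) were higher and 2157 (9.57%) lower. Values are log2, so a difference of 1 is a 2-fold change, and the median difference over all genes was 0.10. Many genes lay near background, since 9665 genes (56.4%) had means at or below the background mark of 3.71 at both times. Of the other 7473 genes, 14.6% were called higher and 21.7% lower. The mark is strict here, because it was set by array 1 h B. On the 6 arrays compared the same controls reached at most 2.98 to 3.26, so some genes under the mark may have had signal. At least 8-fold differences were called for 221 genes that rose and 430 that fell, and 513 genes rose from within background while 527 fell into it. RMA compresses low values, so the size of such changes is uncertain. In 2841 of the 2877 called genes all 3 arrays of one time lay beyond all 3 of the other, and this holds for every called gene given array by array below. Such separation was part of the rule for naming genes. Whether the 3 samples of a time had different mothers or were collected on different days is not in the labels, so the p-values reflect a spread among samples that could be technical. Whole embryos were measured, so fewer cells of a type and less RNA per cell cannot be told apart.

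The balance of rises and falls rested on the scale of the arrays. Control RNAs added before hybridisation averaged 8.64 to 9.72 on the 0 h arrays and 9.52 to 11.1 on the 4 h arrays. When each array was centred on these controls the median difference over all probe sets moved to -0.86, and 313 probe sets were called higher and 2382 lower. Rises then made up 11.6% of the calls, against 42.6% on the deposited scale. Lists below are given with their number of rises under that centring where it moved by more than 1.5 times. The SE also grew there, so a lost call is not by itself a lost rise. his-3 rose by 2.86 ± 0.31 (SE) on the deposited scale and by 1.90 ± 0.66 with that centring (adjusted p = 0.0522). For his-31 the values were 2.06 ± 0.20 and 1.10 ± 0.625 (adjusted p = 0.303), while snfc-5 went from 1.01 to 0.05. Of the called genes named, gsp-4 and msp-63 changed sign.

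**Figure D1:**
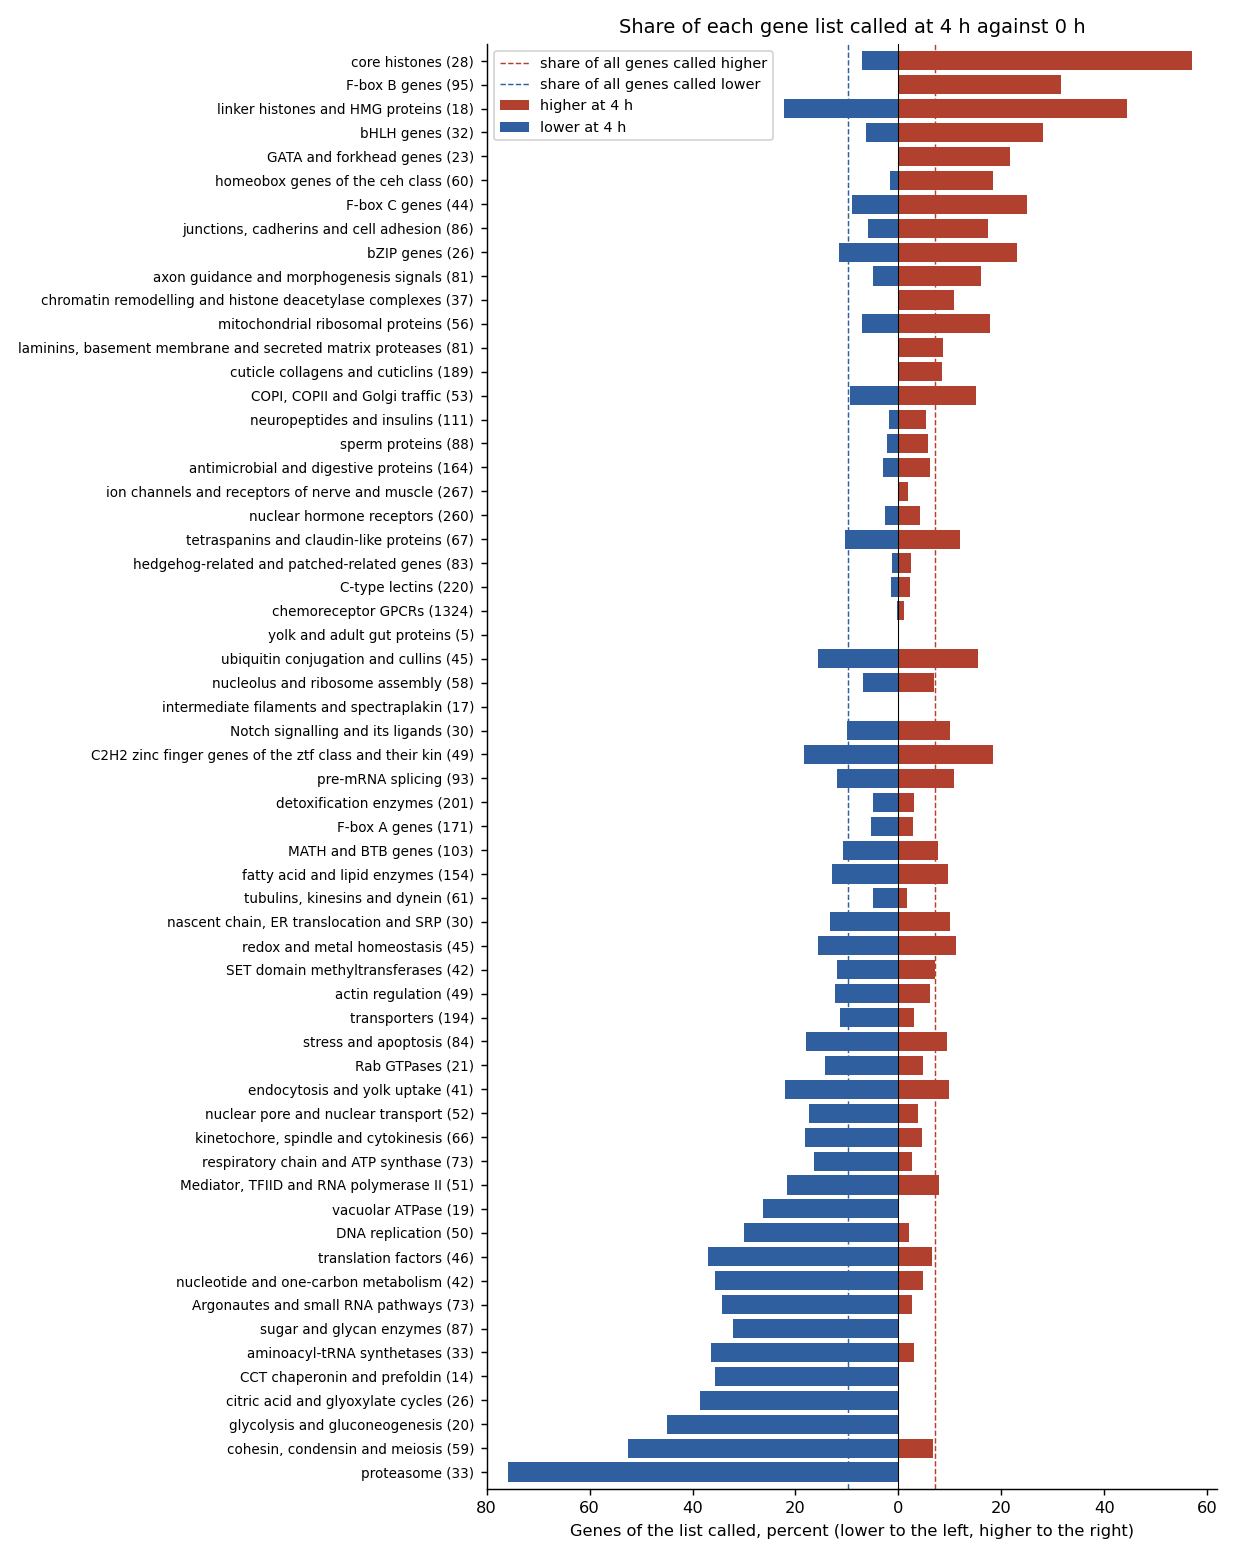
Share of the measured genes of 60 lists called lower (blue, to the left) or higher (red, to the right) at 4 h against 0 h, in percent, with the number of genes in brackets. Dashed lines mark the shares over all genes, 9.71% and 7.08%. The proteasome bar reaches 75.8% to the left and the core histone bar 57.1% to the right.

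Transcripts of the proteasome fell together. Of 33 measured subunit genes, 25 were called lower and 0 higher, against 9.71% of all genes lower, and the list's median difference was -2.48. All 7 genes for the alpha ring of the catalytic core (pas genes) fell, as did 6 of 7 for the beta ring (pbs genes), 5 of 6 for the ATPases that unfold the substrate (rpt genes) and 7 of 13 for the other regulatory subunits (rpn genes). pas-1 read 8.58, 8.64 and 8.88 at 0 h and 4.76, 5.14 and 3.88 at 4 h. All 4 h arrays lay below all 0 h arrays, a fall of 4.11 ± 0.63 (SE, adjusted p = 0.000459). pas-6 fell by 3.91 ± 0.58 (SE, adjusted p = 0.000323) and the ATPase gene rpt-2 by 4.00 ± 0.89 (SE, adjusted p = 0.00679). The medians of the 4 groups were -3.59, -2.70, -2.35 and -2.18 in the order given. Among the 8 that missed the threshold, rpt-1 differed by -3.39 at adjusted p = 0.0537, while rpn-6.1, a subunit of the lid, differed by -0.47 at adjusted p = 0.308. In 31 of the 33 genes every 4 h array lay below every 0 h array. The lowest 4 h value came from array C in 20 genes, from B in 13 and from A in 0, and 30 genes were called lower with arrays centred on the added controls.

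The CCT chaperonin, the ring that folds actin and tubulin, changed in the same direction in part. cct-2, cct-6, cct-7, cct-1 and cct-4 were the 5 members called lower of 14 measured genes of the chaperonin and of prefoldin, its partner that delivers unfolded chains, and 0 were higher. cct-2 fell by 3.19 ± 0.68 (SE, adjusted p = 0.00518) and cct-1 by 2.16 ± 0.41 (SE, adjusted p = 0.00218). The call of cct-6 ended without array 4 h B (adjusted p = 0.057). The prefoldin gene pfd-5 read 9.47, 10.27 and 10.04 at 0 h and 10.56, 10.56 and 10.25 at 4 h, so its groups overlapped. The general chaperone gene hsp-1, a cytosolic HSP70, fell by 4.58 ± 0.90 (SE, adjusted p = 0.00292), and hsp-4, the HSP70 of the endoplasmic reticulum, by 3.33 ± 0.34 (SE, adjusted p = 1.60e-05).

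Enzymes of carbohydrate breakdown and storage moved down. In glycolysis and gluconeogenesis 9 of 20 measured genes were called lower and 0 higher (1 without 4 h B), with a list median of -1.55. aldo-2, a fructose-bisphosphate aldolase, read 11.01, 10.62 and 11.25 at 0 h and 4.50, 4.90 and 3.65 at 4 h. The groups stood far apart, a 97.6-fold difference (adjusted p = 1.30e-06). hxk-1, a hexokinase, fell by 4.05 ± 0.23 (SE, adjusted p = 1.04e-07) and pyk-1, a pyruvate kinase, by 4.12 ± 0.57 (SE, adjusted p = 0.0002). The triosephosphate isomerase gene tpi-1 read 5.46, 5.76 and 5.29 at 0 h and 5.50, 5.32 and 4.55 at 4 h, overlapping between the times, and the glyceraldehyde-3-phosphate dehydrogenase genes gpd-2 and gpd-3, near copies of each other, missed the threshold at differences of -1.76 and -1.82.

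Of 87 genes for sugar and glycan enzymes 28 were lower and 0 higher (1 without 4 h A). gyg-2, a glycogenin that primes glycogen, read 11.25, 11.40 and 12.07 at 0 h and 4.69, 4.36 and 4.47 at 4 h. The times stood far apart, and it fell by 7.07 ± 0.52 (SE, adjusted p = 7.61e-07). pgm-1, a phosphoglucomutase, fell by 4.91 ± 0.15 (SE, adjusted p = 1.00e-09). gfat-1, which commits glucose to the amino sugars used for chitin and glycans, fell by 4.54 ± 0.72 (SE, adjusted p = 0.000589). Both the glycogen synthase gene gsy-1 and the glycogen phosphorylase gene pygl-1 fell, by 1.75 (adjusted p = 0.0141) and 3.24 (adjusted p = 0.00103), the first call ending when only the 6 arrays of 0 h and 4 h were fitted.

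In the citric acid and glyoxylate cycles 10 of 26 genes were lower and 0 higher, with a median of -1.29. pdha-1, the E1 alpha subunit of pyruvate dehydrogenase, fell from 9.64 ± 0.10 to 5.90 ± 1.11 (log2, SD, n = 3) at adjusted p = 7.18e-05. mdh-2, a malate dehydrogenase, fell by 3.63 ± 0.35 (SE, adjusted p = 8.46e-06) and fum-1, the fumarase, by 3.03 ± 0.52 (SE, adjusted p = 0.0011). The isocitrate dehydrogenase gene idh-2 read 4.37, 7.05 and 6.41 at 0 h and 8.16, 7.31 and 5.93 at 4 h, with overlapping groups. The respiratory chain and ATP synthase changed less widely: 12 of 73 genes (16.4%) were lower and 2 (2.74%) higher (0 without 0 h A or 4 h A, 1 without 0 h C), with 0 higher when arrays were centred on the added controls. Among them atp-1, the ATP synthase alpha subunit, fell by 3.63 ± 0.82 (SE, adjusted p = 0.00714), and the complex I gene nduf-2.2 by 4.25 ± 0.65 (SE, adjusted p = 0.000419).

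In lipid metabolism 15 of 154 genes (9.74%) were higher and 20 (12.99%) lower, near the 7.08% and 9.71% of all genes. With arrays centred on the added controls 5 were called higher. dhs-8, a short-chain dehydrogenase, read 3.55, 3.82 and 3.28 at 0 h and 9.89, 10.52 and 9.37 at 4 h. It rose from around background to a level 83.2-fold higher (adjusted p = 8.76e-07). lipl-7, a lipase, rose by 4.77 ± 0.40 (SE, adjusted p = 2.53e-06), and pmt-2, a phosphoethanolamine methyltransferase that makes phosphatidylcholine precursors, by 4.14 ± 0.62 (SE, adjusted p = 0.000369). acdh-3, an acyl-CoA dehydrogenase, fell by 6.34 ± 0.50 (SE, adjusted p = 1.58e-06) and fat-1, the omega-3 desaturase, by 4.03 ± 0.30 (SE, adjusted p = 1.05e-06).

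Nucleotide and one-carbon enzymes gave 15 falls and 2 rises (1 without 0 h A, 0 h B, 0 h C, 4 h A or 4 h C) among 42 genes, and 0 rises with arrays centred on the added controls. upp-1, a uridine phosphorylase, read 9.32, 9.88 and 9.67 at 0 h and 3.92, 4.81 and 4.56 at 4 h, and fell by 5.19 ± 0.60 (SE, adjusted p = 4.09e-05). mel-32, the serine hydroxymethyltransferase, fell by 3.87 ± 0.69 (SE, adjusted p = 0.00143) and mtrr-1, a methionine synthase reductase, by 3.57 ± 0.35 (SE, adjusted p = 1.13e-05). A pair of glutamine synthetase genes outside any list fell further: gln-6 read 11.84, 11.66 and 12.10 at 0 h and 4.32, 6.01 and 4.38 at 4 h, a fall of 6.96 ± 0.52 (SE, adjusted p = 9.94e-07), and gln-5 fell by 6.43 ± 0.45 (SE, adjusted p = 5.20e-07). Their relative gln-1 differed by 0.96 at adjusted p = 0.266, which did not pass.

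**Figure D2:**
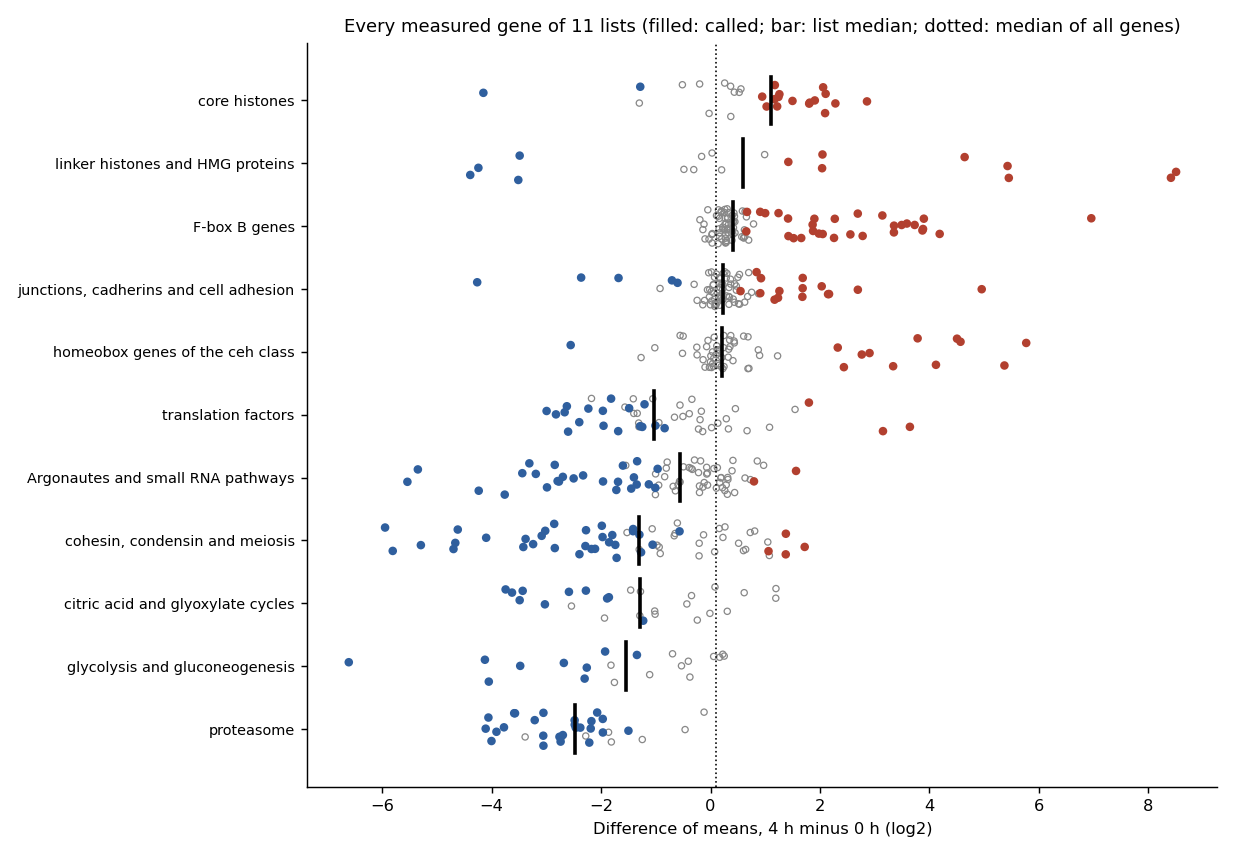
Difference of means between 4 h and 0 h (log2) for every measured gene of 11 lists. Filled points were called (red higher, blue lower), open points were not, black bars are list medians and the dotted line is the median over all genes, 0.10. The proteasome points lie to the left, with a median of -2.48, while the linker histone and HMG list reaches from -4.39 to 8.51.

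The machinery that makes and processes RNA changed in single members. Of 51 genes of Mediator, TFIID and RNA polymerase II 11 were lower (6 without 0 h B, 7 without 0 h C) and 4 higher (1 without 0 h A or 4 h B, 2 without 0 h B or 0 h C), the 4 becoming 0 with arrays centred on the added controls and 1 under the time tags of 1 h B and 1 h C. tbp-1, the TATA-binding protein, read 7.53, 7.62 and 7.32 at 0 h and 5.14, 5.08 and 4.88 at 4 h, with no overlap, and fell by 2.46 ± 0.35 (SE, adjusted p = 0.000228). taf-11.2, a TFIID subunit, fell by 3.17 ± 0.47 (SE, adjusted p = 0.000331). The RNA polymerase II large subunit gene ama-1 read 4.67, 3.95 and 3.87 at 0 h and 4.01, 4.74 and 4.41 at 4 h and differed by 0.22 at adjusted p = 0.72. Among 93 splicing genes 11 (11.8%) were lower and 10 (10.8%) higher (5 without 4 h B, 6 without 0 h C), and 0 were higher with arrays centred on the added controls. Over all genes 9.71% were lower and 7.08% higher. cyn-9, a cyclophilin, read 6.62, 7.92 and 7.31 at 0 h and 3.32, 3.70 and 3.45 at 4 h, and fell by 3.79 ± 0.27 (SE, adjusted p = 6.63e-07), while another cyclophilin gene, cyn-5, rose by 2.21 ± 0.30 (SE, adjusted p = 0.000169) on the deposited scale. snrp-40.2, related to a protein of the U5 particle, fell by 4.26 ± 0.37 (SE, adjusted p = 3.76e-06). Of 58 genes of the nucleolus and ribosome assembly 4 were lower and 4 higher (1 without 0 h C or 4 h B), with 9 lower and 0 higher after centring on the added controls. Both shares were 6.9%, below those of all genes. fib-1, the fibrillarin that methylates ribosomal RNA, read 11.66, 11.81 and 12.23 at 0 h and 10.57, 10.08 and 10.19 at 4 h, and fell by 1.62 ± 0.31 (SE, adjusted p = 0.00218).

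Translation factors fell more often than they rose. Of 46 genes 17 were lower and 3 higher, and the median was -1.03. The lower count dropped to 11 without array 0 h C or without 4 h C. eef-1G, the gamma subunit of the elongation factor that reloads eEF1A, read 11.81, 11.76 and 11.72 at 0 h and 9.48, 8.66 and 9.15 at 4 h, with no overlap between the times, and fell by 2.67 ± 0.34 (SE, adjusted p = 0.000106). eif-2A, an initiation factor, fell by 2.82 ± 0.32 (SE, adjusted p = 3.30e-05). The 3 that rose were iff-2 by 3.64 (adjusted p = 2.77e-06), ife-4 by 3.15 (adjusted p = 6.57e-07), both described with their families below, and the eIF3 subunit gene eif-3.G by 1.80 (adjusted p = 0.000938), a call that ended with arrays centred on the added controls.

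Aminoacyl-tRNA synthetases, which charge transfer RNAs, had 12 of 33 genes lower (7 without 0 h A) and 1 higher (2 without 4 h C). nars-1, for asparagine, fell by 2.82 ± 0.63 (SE, adjusted p = 0.00653) and rars-2, for arginine, by 3.04 ± 0.29 (SE, adjusted p = 7.29e-06). cars-2, for cysteine, was the 1 that rose, by 1.43 ± 0.28 (SE, adjusted p = 0.00276), and its call ended under the time tags of 1 h B and 1 h C and also after centring on the added controls. Mitochondrial ribosomal protein genes went the other way, with 10 of 56 higher and 4 lower (2 without 0 h B, 0 h C, 4 h B or 4 h C, 7 without 0 h A). The 10 rises became 0 after centring on the added controls, and 2 under the time tags of 1 h B and 1 h C. mrpl-22 read 3.84, 4.97 and 5.26 at 0 h and 7.04, 6.14 and 7.43 at 4 h and rose by 2.18 ± 0.42 (SE, adjusted p = 0.00245), a call that ended in both of these settings. In the list of endoplasmic reticulum translocation 3 of 30 genes (10%) were higher (5 without 0 h A) and 4 (13.3%) lower, near the 7.08% and 9.71% of all genes. trap-2 and spcs-1, subunits of the translocon-associated complex and of the signal peptidase, rose by 2.15 (adjusted p = 3.64e-05) and 1.76 (adjusted p = 2.83e-05) while sec-61.A, the channel itself, fell by 2.48 ± 0.42 (SE, adjusted p = 0.00102). None of the list's 3 rises was called with arrays centred on the added controls.

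Genes of meiosis and of chromosome cohesion fell in larger part. Of 59 genes 31 were lower and 4 higher (2 without 0 h B or 4 h A), with a median of -1.30. him-5, needed for crossovers on the X chromosome, read 8.41, 8.84 and 8.57 at 0 h and 2.60, 2.69 and 2.70 at 4 h. It fell from well above background to below it, by 5.95 ± 0.26 (SE, adjusted p = 1.24e-08). spo-11, the enzyme that makes meiotic double-strand breaks, read 8.14, 8.51 and 8.40 at 0 h and 3.07, 3.23 and 2.87 at 4 h, a fall of 5.29 ± 0.25 (SE, adjusted p = 1.81e-08). syp-2, of the synaptonemal complex, fell by 5.81 ± 0.20 (SE, adjusted p = 2.17e-09), mei-2, a katanin subunit of the meiotic spindle, by 4.70 ± 0.32 (SE, adjusted p = 4.07e-07), and him-3, of the chromosome axis, by 4.66 ± 0.38 (SE, adjusted p = 2.18e-06). Outside the list, lab-1, which protects cohesion in meiosis, fell by 6.23 ± 0.34 (SE, adjusted p = 6.13e-08), and mjl-1, another meiotic gene, by 6.41 ± 0.46 (SE, adjusted p = 7.06e-07).

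The 4 genes of that list that rose were all of condensin, the complex that compacts chromosomes: dpy-26, dpy-27, hcp-6 and kle-2. kle-2 read 7.0, 7.04 and 6.62 at 0 h and 8.04, 7.95 and 7.84 at 4 h, so all 4 h arrays lay above all 0 h arrays, and it rose by 1.06 ± 0.21 (SE, adjusted p = 0.0029). hcp-6 rose by 1.37 ± 0.29 (SE, adjusted p = 0.00428). dpy-26 and dpy-27 rose by 1.72 (adjusted p = 0.0209) and 1.38 (adjusted p = 0.0452). The first of these calls ended without 0 h B or 4 h A (highest adjusted p = 0.0956), the second without any 1 of 0 h A, 0 h B, 0 h C, 4 h A or 4 h C (highest adjusted p = 0.155). The call of dpy-26 also ended with the 6 arrays of 0 h and 4 h alone (0.0519) and under the time tags (0.136). That of dpy-27 also ended under the tags (0.145), without 1 h B and 1 h C (0.0669), with arrays centred on their medians (0.0886) and with a replicate block (0.059). The condensin gene mix-1 differed by 1.07 at adjusted p = 0.351. None of the 4 was called with arrays centred on the added controls.

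DNA replication genes had 15 of 50 lower and 1 higher (2 without 0 h A). dut-1, the dUTPase, fell from 11.51 ± 0.23 to 7.80 ± 0.55 (log2, SD, n = 3) at adjusted p = 5.82e-05. mcm-6, of the replicative helicase, fell by 2.96 ± 0.55 (SE, adjusted p = 0.00193), while mcm-7 of the same complex read 10.22, 6.91 and 8.60 at 0 h and 9.25, 9.26 and 8.38 at 4 h, with overlapping groups. The single rise was polg-1, the mitochondrial DNA polymerase, at 3.10, 3.66 and 3.54 at 0 h and 6.36, 6.56 and 5.98 at 4 h, a difference of 2.87 ± 0.27 (SE, adjusted p = 6.79e-06). At the nuclear pore and in nuclear transport 9 of 52 genes were lower and 2 higher (1 without 0 h B, 0 h C or 4 h B, 4 without 0 h A), with 0 higher under the time tags of 1 h B and 1 h C or after centring on the added controls. ima-2, an importin alpha, read 10.93, 10.72 and 10.66 at 0 h and 4.55, 5.49 and 3.81 at 4 h, and fell by 6.15 ± 0.56 (SE, adjusted p = 4.90e-06). nxf-2, an RNA export factor, fell by 4.03 ± 0.72 (SE, adjusted p = 0.00146).

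In cell division and its machinery 12 of 66 genes of kinetochore, spindle and cytokinesis were lower and 3 higher (5 without 0 h A), the 3 becoming 0 with arrays centred on the added controls. apc-10, a subunit of the anaphase-promoting complex, read 9.08, 10.30 and 9.96 at 0 h and 6.18, 6.54 and 3.99 at 4 h, and fell by 4.20 ± 0.63 (SE, adjusted p = 0.000387). ani-2, the anillin of the germ line, fell by 2.80 ± 0.47 (SE, adjusted p = 0.00095), ify-1, the securin that guards cohesin, by 2.44 ± 0.33 (SE, adjusted p = 0.000153) and plk-2, a polo-like kinase of meiosis, by 2.40 ± 0.27 (SE, adjusted p = 3.79e-05). The polo-like kinase gene plk-1 differed by -0.55 at adjusted p = 0.628. Of 61 genes for tubulins, kinesins and dynein 3 were lower and 1 higher (3 without 0 h A or 4 h C), both under the background shares, and 0 were higher with arrays centred on the added controls. dlc-1, a dynein light chain, read 11.46, 11.92 and 11.32 at 0 h and 10.67, 10.67 and 10.29 at 4 h, and fell by 1.02 ± 0.21 (SE, adjusted p = 0.00419), a call that ended under the time tags of 1 h B and 1 h C. In actin regulation 6 of 49 (12.2%) were lower (3 without 0 h C, 4 h B or 4 h C) and 3 (6.12%) higher (5 without 0 h A or 4 h B), near the background shares, with 0 higher after centring on the added controls. mig-2, which acts in cell migration, rose by 1.91 ± 0.38 (SE, adjusted p = 0.00305), not called under those tags or after centring on the added controls.

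Small RNA pathways, which silence transposons and foreign sequence in the germ line, had 25 of 73 genes lower and 2 higher (0 without 0 h B, 0 h C, 4 h A or 4 h B, 1 without 0 h A), and 0 were higher under the time tags of 1 h B and 1 h C or after centring on the added controls. The piRNA factor gene pid-1 read 9.80, 10.26 and 10.50 at 0 h and 4.25, 5.36 and 4.33 at 4 h, and fell by 5.54 ± 0.37 (SE, adjusted p = 3.41e-07). The Argonaute gene wago-1 read 9.66, 7.63 and 7.84 at 0 h and 2.81, 3.19 and 3.09 at 4 h, with array 0 h A the highest, and fell by 5.35 ± 0.60 (SE, adjusted p = 3.22e-05) into background. prg-1, the Piwi protein, fell by 3.76 ± 0.47 (SE, adjusted p = 8.96e-05) and tofu-2, needed to make piRNAs, by 4.24 ± 0.41 (SE, adjusted p = 8.76e-06). alg-2, an Argonaute of the microRNA pathway, differed by 0.63 at adjusted p = 0.337, and nrde-3, a nuclear Argonaute, by 0.06 at adjusted p = 0.959, neither past the threshold.

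Membrane and transport genes included single large changes. rme-2, the oocyte receptor for yolk, read 8.59, 6.97 and 7.69 at 0 h and 3.22, 3.40 and 3.43 at 4 h, and fell by 4.40 ± 0.32 (SE, adjusted p = 8.28e-07) into background. cav-1, a caveolin, went up from a level that was already high, at 9.86, 9.94 and 9.84 at 0 h and 13.25, 13.38 and 13.46 at 4 h, a rise of 3.48 ± 0.13 (SE, adjusted p = 2.45e-09). The vacuolar ATPase, a proton pump, had 5 of 19 genes (26.3%) lower and 0 higher (1 without 0 h B), against 9.71% and 7.08% of all genes. Its largest fall was that of vha-18, by 4.75 ± 0.38 (SE, adjusted p = 1.50e-06). Of 194 transporter genes 22 (11.3%) were lower, near the share of all genes, and 6 (3.09%) higher, below it. With arrays centred on the added controls 1 was higher. zipt-7.1, a zinc transporter, fell by 4.67 ± 0.35 (SE, adjusted p = 9.37e-07), and aqp-2, an aquaporin, rose by 5.29 ± 0.54 (SE, adjusted p = 1.46e-05). In COPI, COPII and Golgi traffic 8 of 53 genes (15.1%) were higher and 5 (9.43%) lower, against 1 higher and 10 lower after centring on the added controls. ergi-1, of the compartment between the endoplasmic reticulum and the Golgi, rose by 4.33 ± 0.45 (SE, adjusted p = 1.57e-05). In endocytosis 9 of 41 (21.95%) were lower and 4 (9.76%) higher, with 1 higher after that centring. lgg-1, the Atg8 protein of autophagosomes, read 10.19, 10.57 and 9.92 at 0 h and 12.04, 12.23 and 12.14 at 4 h, and rose by 1.91 ± 0.16 (SE, adjusted p = 2.72e-06), not called after that centring, and rme-1, which recycles endocytosed receptors, fell by 2.17 ± 0.38 (SE, adjusted p = 0.00117). The small GTPase genes rab-6.1 and rab-19 moved apart, rab-6.1 by -4.64 (adjusted p = 0.000316) and rab-19 by 4.97 (adjusted p = 1.01e-07).

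**Figure D3:**
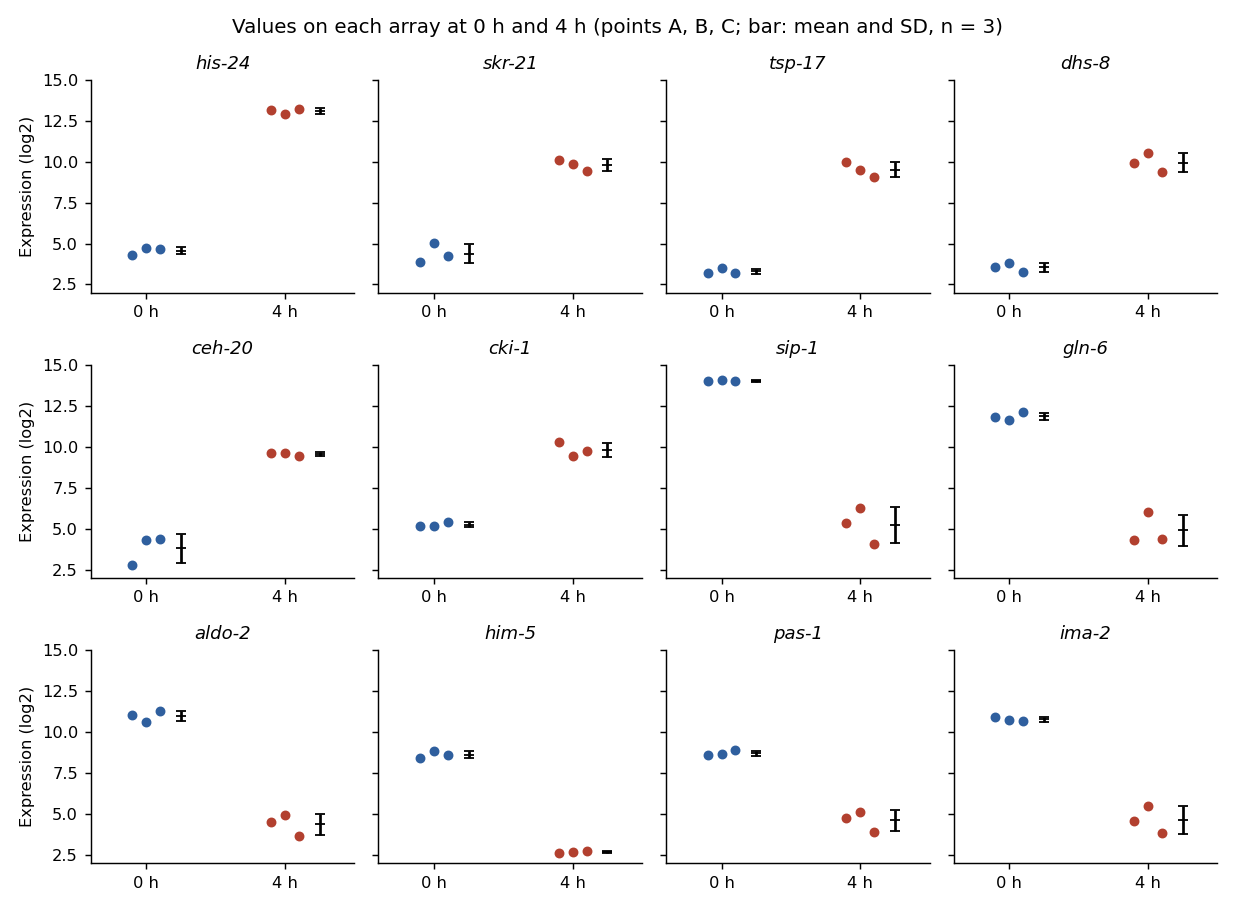
Values on each array (log2) at 0 h (blue) and 4 h (red) for 12 genes, with the mean and SD of 3 arrays beside the points A, B and C from left to right. In each panel the 2 times do not overlap, which was part of the rule for naming genes. his-24 goes from 4.57 to 13.07 on average and him-5 from 8.61 to 2.66.

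Most core histone transcripts rose. Of 28 measured genes 16 were higher and 2 lower (1 without 0 h B, 0 h C or 4 h B), against 7.08% and 9.71% of all genes, with a median difference of 1.10, but with arrays centred on the added controls 0 were called higher. his-3, an H2A gene, read 6.65, 7.98 and 8.16 at 0 h and 10.56, 10.28 and 10.53 at 4 h, with array 0 h A the lowest, and rose by 2.86 ± 0.31 (SE, adjusted p = 2.17e-05). his-31, an H4 gene, read 8.69, 9.52 and 9.47 at 0 h and 11.47, 11.38 and 11.01 at 4 h, and rose by 2.06 ± 0.20 (SE, adjusted p = 9.90e-06). The variant H2A.Z gene htz-1 rose by 1.26 ± 0.30 (SE, adjusted p = 0.0104). Of the 28 probe sets 20 are marked on the array as matching several transcripts, 71.4% against 25.2% over all genes, so single members of the replication-dependent clusters may share signal. Among remodelling and histone deacetylase complexes 4 of 37 genes rose (2 without 0 h C) and 0 fell, for example the SWI/SNF genes swsn-6 by 1.19 (adjusted p = 0.00171) and snfc-5 by 1.01 (adjusted p = 0.00719), and with arrays centred on the added controls 0 were called higher.

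Of the SET domain methyltransferases 3 of 42 rose and 5 fell (3 without 0 h B, 0 h C or 4 h C), both near the background shares, with 1 higher after centring on the added controls. set-1, a methyltransferase of histone H4, read 7.22, 7.14 and 7.07 at 0 h and 8.34, 8.79 and 8.16 at 4 h and rose by 1.29 ± 0.21 (SE, adjusted p = 0.000634), a call lost there. set-22 fell by 4.39 ± 0.30 (SE, adjusted p = 3.87e-07). The 5 falls of the list include prmt-1, an arginine methyltransferase without a SET domain (adjusted p = 0.0487). Of 18 linker histones and HMG proteins, which bend or bind DNA, 8 were higher and 4 lower, with 5 higher after that centring. hmg-11, with AT-hook motifs, read 3.18, 3.34 and 3.42 at 0 h and 11.68, 11.69 and 11.80 at 4 h, a 340-fold rise (adjusted p = 1.49e-11), while hmg-12, its relative, fell by 4.24 ± 0.36 (SE, adjusted p = 2.94e-06).

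F-box genes of the B family gave rises and no falls. Of 95 measured fbxb genes 30 were higher and 0 lower, against 7.08% and 9.71% of all genes, and 12 were called higher with arrays centred on the added controls, 17 with arrays 1 h B and 1 h C placed by their time tags. fbxb-66 read 3.53, 3.26 and 3.60 at 0 h and 10.32, 10.83 and 10.11 at 4 h, from within background to a level 124-fold higher (adjusted p = 1.01e-09). fbxb-1 rose by 4.19 ± 0.24 (SE, adjusted p = 1.04e-07) and fbxb-77 by 3.87 ± 0.21 (SE, adjusted p = 7.48e-08). For 23 of the 30 the 0 h mean lay within background. In 52 of the 95 genes every 4 h array lay above every 0 h array. Only 40 of the 95 had a mean above background at either time, and the list's median difference was 0.41. The roles of single fbxb genes are mostly unknown, and 12 of the 29 risen genes that the RefSeq table lists as protein-coding lay within 3 genes of another risen fbxb gene on the chromosome, against 15 of the 61 others.

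The net difference gave only the end of a larger movement of this family. The median fbxb level (log2) started at 3.05, went to 4.94 after 1 h and 7.44 after 2 h, and came back to 4.42 after 3 h and 3.53 after 4 h. In 76 of the 95 genes all 3 arrays at 2 h lay above all arrays of both 0 h and 4 h, which held for 796 of all 17138 genes (4.64%). Of those 76, 24 were called higher at 4 h and 52 were not called. The fbxc family gave 13 of 44 such genes (29.5%) and the fbxa family 7 of 171 (4.09%).

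Of the 44 measured fbxc genes 11 were higher and 4 lower at 4 h, and 4 were higher with arrays centred on the added controls. fbxc-34 read 2.57, 2.77 and 2.51 at 0 h and 10.66, 10.29 and 9.87 at 4 h, a rise of 7.66 ± 0.26 (SE, adjusted p = 2.06e-09), and fbxc-50 read 7.67, 7.85 and 8.95 at 0 h and 2.59, 2.44 and 2.65 at 4 h, a fall of 5.60 ± 0.49 (SE, adjusted p = 3.76e-06). The fbxa family, the largest measured with 171 genes, had 5 higher (3 without 0 h A) and 9 lower, below both background shares, and 0 were higher after that centring. fbxa-215 fell by 5.16 ± 0.29 (SE, adjusted p = 7.32e-08). MATH and BTB genes, whose proteins serve as target receptors for another cullin, had 8 of 103 higher, with 2 when arrays were centred on the added controls, and 11 lower. These shares of 7.77% and 10.7% lay near the 7.08% and 9.71% of all genes. bath-10 read 3.10, 2.97 and 2.20 at 0 h and 8.87, 8.38 and 8.09 at 4 h, rising by 5.69 ± 0.33 (SE, adjusted p = 1.11e-07), and bath-5 fell by 4.02 ± 0.40 (SE, adjusted p = 1.20e-05).

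**Figure D4:**
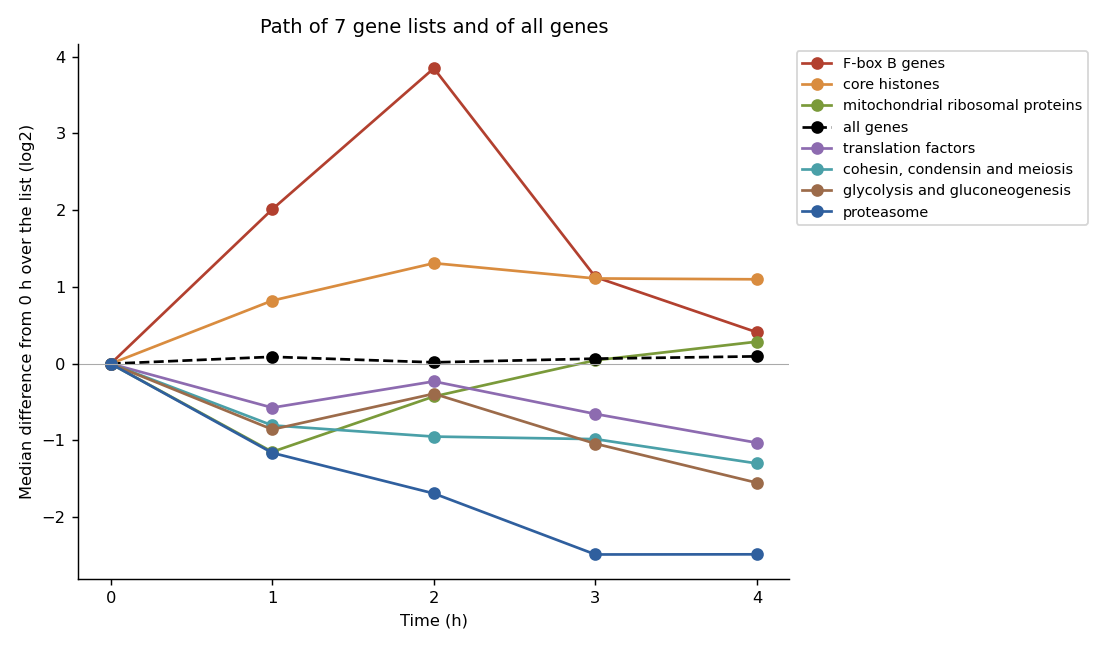
Median difference from 0 h (log2) over the genes of 7 lists and over all genes at 0, 1, 2, 3 and 4 h. The F-box B list reaches 3.85 at 2 h and ends at 0.41, the proteasome list falls to -2.49 by 3 h and ends at -2.48, and the mitochondrial ribosomal protein list goes to -1.15 at 1 h and ends at 0.29.

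The lists reached their net change along different paths. The proteasome median relative to 0 h was -1.16 after 1 h, -1.69 after 2 h and -2.49 after 3 h, and at 4 h it was -2.48. Translation factors went from -0.57 at 1 h to -0.23 at 2 h and -1.03 at 4 h, and glycolysis from -0.86 to -0.39 and -1.55. Mitochondrial ribosomal proteins were at -1.15 at 1 h, -0.43 at 2 h and 0.29 at 4 h. The 1 h values include arrays 1 h B and 1 h C, whose time tags of 2 h and 3 h go against their titles. All these differences share the 0 h arrays.

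In several families one set of members fell while another rose, and these families were picked after their values were seen. Linker histones, which bind the DNA between nucleosomes, exchanged members: hil-5 read 12.20, 12.17 and 12.23 at 0 h and 8.71, 6.93 and 7.79 at 4 h, a fall of 4.39 ± 0.70 (SE, adjusted p = 0.000635), and hil-4 fell by 3.51 ± 0.82 (SE, adjusted p = 0.00916). his-24 read 4.33, 4.72 and 4.66 at 0 h and 13.13, 12.88 and 13.21 at 4 h, and rose by 8.51 ± 0.45 (SE, adjusted p = 5.09e-08). hil-2, hil-3 and hil-7 rose by 4.64, 5.43 and 5.45 (adjusted p = 2.12e-07, 3.01e-07 and 3.66e-06), calls that also held with arrays centred on the added controls, and hil-6 rose by 2.04 (adjusted p = 4.66e-05), a call that did not. Of the genes for histone H3.3, the form used outside replication, his-74 fell by 4.15 ± 0.42 (SE, adjusted p = 1.46e-05) and his-72 rose by 1.18 ± 0.25 (SE, adjusted p = 0.00437), the rise not called with arrays centred on the added controls or with 1 h B and 1 h C placed by their tags.

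The translation factor eIF5A, which helps ribosomes through difficult stretches, has iff-1 and iff-2. iff-1 read 13.10, 13.23 and 13.15 at 0 h and 11.27, 12.14 and 11.61 at 4 h, a fall of 1.49 ± 0.19 (SE, adjusted p = 8.59e-05), and iff-2 read 6.34, 5.73 and 5.89 at 0 h and 9.98, 9.53 and 9.38 at 4 h, a rise of 3.64 ± 0.31 (SE, adjusted p = 2.77e-06). Among the cap-binding eIF4E genes, ife-1 fell by 2.62 ± 0.39 (SE, adjusted p = 0.000316) and ife-4 rose by 3.15 ± 0.23 (SE, adjusted p = 6.57e-07). ife-3 fell by 3.00 ± 0.90 (SE, adjusted p = 0.038), a call that ended without any 1 of 0 h A, 0 h B, 0 h C, 4 h B or 4 h C, with adjusted p from 0.0642 to 0.132. ife-2 differed by 1.54 at adjusted p = 0.0527. For the b subunit of ATP synthase, asb-1 fell by 3.63 ± 0.67 (SE, adjusted p = 0.00174), whereas asb-2 read 6.25, 6.03 and 6.74 at 0 h and 7.03, 6.41 and 7.15 at 4 h, with overlapping groups. For aldolase, the fall of aldo-2 stood beside aldo-1 at 5.99, 5.98 and 5.62 at 0 h and 5.95, 5.56 and 6.25 at 4 h, which did not differ beyond its spread.

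**Figure D5:**
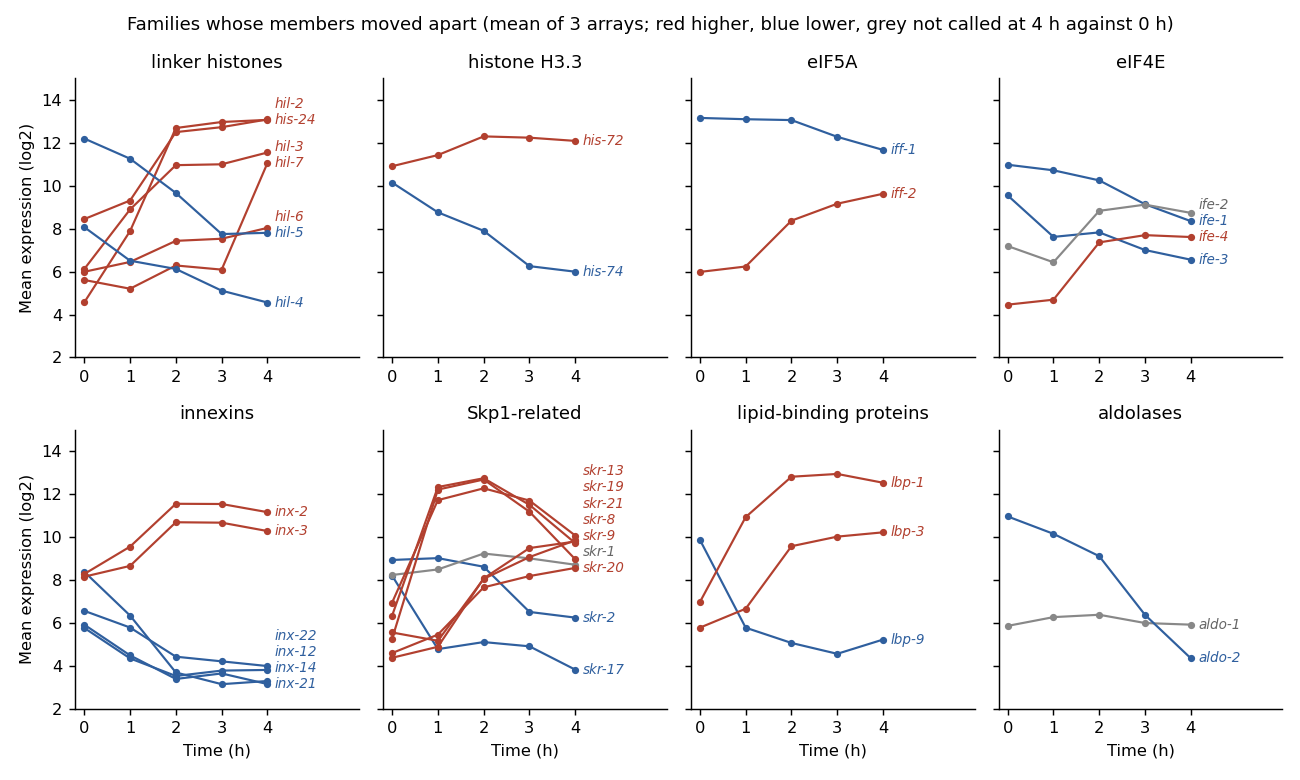
Mean of 3 arrays (log2) at 0, 1, 2, 3 and 4 h for members of 8 gene families, coloured by the call at 4 h against 0 h (red higher, blue lower, grey not called). Levels of different genes are not on a common scale, so only the course of each line can be read. The lines of hil-4 and hil-5 fall while those of his-24, hil-2 and hil-3 rise, and inx-14 falls while inx-2 and inx-3 rise.

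Innexins, which form gap junctions between cells, split in the same manner. inx-14, an innexin of the germ line, read 8.0, 8.91 and 8.24 at 0 h and 3.46, 3.05 and 3.37 at 4 h, and fell by 5.09 ± 0.61 (SE, adjusted p = 6.06e-05) into background. inx-21 and inx-22 fell by 2.77 (adjusted p = 4.58e-05) and 2.57 (adjusted p = 1.88e-05), and inx-12 by 1.96 (adjusted p = 0.00341). inx-2 read 8.62, 8.03 and 8.19 at 0 h and 11.32, 10.83 and 11.32 at 4 h, a rise of 2.88 ± 0.21 (SE, adjusted p = 8.73e-07), and inx-3 rose by 2.13 ± 0.29 (SE, adjusted p = 0.000194), the latter not called with arrays centred on the added controls or with 1 h B and 1 h C placed by their tags. Tetraspanins, membrane proteins that gather others into patches, also moved both ways. tsp-17 read 3.19, 3.49 and 3.23 at 0 h and 9.96, 9.51 and 9.03 at 4 h, a rise of 6.20 ± 0.41 (SE, adjusted p = 3.46e-07). tsp-16 rose by 3.79 ± 0.26 (SE, adjusted p = 4.64e-07) and tsp-12 fell by 2.22 ± 0.63 (SE, adjusted p = 0.0283). In the combined list 8 of 67 genes (11.94%) were higher and 7 (10.45%) lower, against 7.08% and 9.71% of all genes. With arrays centred on the added controls 4 were higher.

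In the list of ubiquitin conjugation and cullins 7 of 45 genes were higher and 7 lower (3 without 4 h C, 4 without 0 h C). Skp1-related genes, which link F-box proteins to a cullin, gave 6 rises and 3 falls among 19 measured. skr-21 read 3.89, 5.0 and 4.24 at 0 h and 10.10, 9.87 and 9.41 at 4 h, a rise of 5.42 ± 0.35 (SE, adjusted p = 2.51e-07), and skr-19 and skr-20 rose by 4.29 (adjusted p = 8.66e-06) and 3.97 (adjusted p = 1.21e-06). skr-8, skr-9 and skr-13 rose by 3.38, 3.71 and 3.12 (adjusted p = 2.21e-06, 2.75e-06 and 7.78e-06). All 6 lay within 3 genes of another risen skr gene, and 0 of the 12 others placed in the RefSeq table did. The probe sets of skr-8, skr-9, skr-13 and skr-20 can share signal, being marked as matching several transcripts. skr-17 read 7.96, 8.32 and 8.33 at 0 h and 3.99, 3.75 and 3.73 at 4 h, a fall of 4.38 ± 0.48 (SE, adjusted p = 2.44e-05), skr-2 fell by 2.69 ± 0.37 (SE, adjusted p = 0.000193) and skr-3 by 0.66 ± 0.15 (SE, adjusted p = 0.00797), the last call ending with arrays centred on the added controls. skr-1, the general Skp1 of the worm, differed by 0.48 at adjusted p = 0.29, and the cullin gene cul-1 by -0.79 at adjusted p = 0.455.

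Lipid-binding protein genes moved apart in the same way. lbp-1 read 6.92, 7.05 and 6.93 at 0 h and 12.52, 12.37 and 12.70 at 4 h, a 47.1-fold rise (adjusted p = 1.70e-10), lbp-3 rose by 4.44 ± 0.40 (SE, adjusted p = 5.18e-06), and lbp-9 read 9.05, 10.17 and 10.40 at 0 h and 5.34, 5.16 and 5.18 at 4 h, a fall of 4.65 ± 0.33 (SE, adjusted p = 6.23e-07). Small heat shock proteins moved apart as well: sip-1, an embryonic small heat shock protein, read 13.99, 14.06 and 13.99 at 0 h and 5.36, 6.26 and 4.08 at 4 h, a fall of 8.78 ± 0.52 (SE, adjusted p = 1.19e-07), and hsp-12.2 rose by 4.44 ± 0.16 (SE, adjusted p = 2.45e-09).

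Transcription factor families rose in part, and some of their members also stand in the list of mesoderm and pharynx regulators: 3 of the risen ceh genes, 2 of the risen GATA and forkhead genes and 0 of the risen bHLH genes. Homeobox genes of the ceh class had 11 of 60 higher and 1 lower (2 without 0 h A), with 9 higher when arrays were centred on the added controls and 17 without 4 h C. ceh-20, a PBC-type partner of Hox proteins, read 2.75, 4.28 and 4.36 at 0 h and 9.62, 9.64 and 9.43 at 4 h, and rose by 5.77 ± 0.43 (SE, adjusted p = 9.11e-07). ceh-43, a Distal-less relative of anterior cells, rose by 4.57 ± 0.29 (SE, adjusted p = 2.52e-07), and ceh-13, the anterior Hox gene, by 3.78 ± 0.22 (SE, adjusted p = 1.25e-07). Of 32 bHLH genes 9 were higher and 2 lower (1 without 0 h B, 0 h C or 4 h C), with 2 higher with arrays centred on the added controls. hlh-14, a proneural gene, read 4.29, 3.80 and 3.82 at 0 h and 9.10, 8.32 and 8.52 at 4 h, a rise of 4.67 ± 0.39 (SE, adjusted p = 2.62e-06), and lin-32, another proneural gene, rose by 4.02 ± 0.27 (SE, adjusted p = 3.87e-07). Of these 3 homeobox and 2 bHLH genes the call of hlh-14 ended when arrays 1 h B and 1 h C were placed by their tags, which left 5 bHLH genes higher.

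Among bZIP genes 6 of 26 were higher and 3 lower (1 without 0 h B, 0 h C or 4 h B), the 6 becoming 2 under the time tags of 1 h B and 1 h C and 3 after centring on the added controls. ces-2, which controls the death of specific nerve sister cells, read 3.45, 3.35 and 3.36 at 0 h and 10.35, 7.79 and 8.43 at 4 h, with array A the highest at 4 h, and rose by 5.47 ± 0.49 (SE, adjusted p = 4.21e-06). The zinc finger genes of the ztf class and their kin were evenly divided, with 9 of 49 higher and 9 lower, and 4 higher under the tags and 2 higher with arrays centred on the added controls. ces-1, a Snail-type repressor, rose by 5.68 ± 0.19 (SE, adjusted p = 1.98e-09) and sptf-1, of the Sp family, by 5.86 ± 0.45 (SE, adjusted p = 1.30e-06). ztf-15 read 6.89, 7.28 and 6.85 at 0 h and 2.77, 2.75 and 2.60 at 4 h, and fell by 4.30 ± 0.19 (SE, adjusted p = 1.11e-08) into background. Of 23 GATA and forkhead genes 5 were higher (3 without 0 h A, 0 h B or 4 h A) and 0 lower, with 2 higher after centring on the added controls. fkh-2, a forkhead gene, read 3.43, 3.35 and 2.98 at 0 h and 8.16, 6.78 and 6.55 at 4 h, and rose by 3.91 ± 0.38 (SE, adjusted p = 8.47e-06). Of 260 nuclear hormone receptor genes 11 were higher (1 with arrays centred on the added controls) and 7 lower, below both background shares, and 63 had a mean above background at either time.

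Genes of the cell surface rose more often than they fell on the deposited scale, though only some of their lists exceeded the 7.08% of all genes called higher. Of 86 genes of junctions, cadherins and adhesion 15 (17.4%) were higher and 5 lower (3 without 0 h C or 4 h C), but 1 was higher and 3 were lower with arrays centred on the added controls. igcm-3, an immunoglobulin-type adhesion protein, read 3.60, 3.61 and 3.77 at 0 h and 9.20, 8.21 and 8.44 at 4 h, and rose by 4.95 ± 0.64 (SE, adjusted p = 0.000111). ina-1, an integrin alpha chain, rose by 2.69 ± 0.39 (SE, adjusted p = 0.000273), not called with that centring, and picc-1 fell by 4.26 ± 0.45 (SE, adjusted p = 1.80e-05). The cadherin complex genes hmr-1, hmp-1 and hmp-2 were not called, at differences of 0.05, 0.91 and -0.25. In the basement membrane and matrix list 7 of 81 (8.64%, near the share of all genes) were higher and 0 lower (1 without 0 h B), with 4 higher under the tags and 4 with arrays centred on the added controls. lam-3, a laminin alpha chain, read 2.83, 2.62 and 2.81 at 0 h and 8.18, 7.09 and 7.43 at 4 h, a rise of 4.81 ± 0.30 (SE, adjusted p = 2.13e-07), and mnp-1, a matrix protein related to peptidases, rose by 4.77 ± 0.21 (SE, adjusted p = 1.16e-08).

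Cuticle collagens and cuticlins, parts of the larval exoskeleton, had 16 of 189 higher and 0 lower, near the 7.08% of all genes, with 4 higher with arrays centred on the added controls and 32 without arrays 1 h B and 1 h C. col-118 read 3.02, 2.86 and 2.69 at 0 h and 8.59, 8.68 and 7.27 at 4 h, a rise of 5.32 ± 0.32 (SE, adjusted p = 1.66e-07), and dpy-17 rose by 4.29 ± 0.48 (SE, adjusted p = 3.19e-05) and dpy-14 by 3.68 ± 0.28 (SE, adjusted p = 1.00e-06). Of 220 C-type lectin genes 5 (2.27%) were higher (3 without 0 h C or 4 h C, 8 without 4 h A) and 3 (1.36%) lower, below both background shares, with 2 higher when arrays were centred on the added controls. clec-266 read 4.66, 4.18 and 5.04 at 0 h and 11.88, 11.83 and 11.93 at 4 h, a 153-fold rise (adjusted p = 2.45e-09), and clec-87 read 13.66, 13.68 and 13.58 at 0 h and 4.88, 6.81 and 6.93 at 4 h, a fall of 7.43 ± 0.48 (SE, adjusted p = 2.90e-07). clec-88 fell by 6.10 ± 0.48 (SE, adjusted p = 1.42e-06) and clec-91 by 3.04 ± 0.19 (SE, adjusted p = 2.42e-07). Of 83 hedgehog-related and patched-related genes 2 (2.41%) were higher and 1 (1.2%) lower, below both background shares, with 1 higher under the tags or after that centring, and wrt-10 was up by 5.86 ± 0.38 (SE, adjusted p = 2.53e-07). In axon guidance and morphogenesis 13 of 81 genes (16.05%) were higher and 4 lower, with 0 higher with arrays centred on the added controls and 7 under the tags. mig-10, an adaptor in cell migration, rose by 2.73 ± 0.26 (SE, adjusted p = 8.79e-06), not called with that centring, and mom-2, a maternal Wnt ligand, fell by 5.19 ± 0.46 (SE, adjusted p = 4.15e-06). Of 30 Notch signalling genes 3 (10%) were higher and 3 (10%) lower, near the shares of all genes, with 1 higher after that centring. The 3 rises were ligand genes, dsl-3 by 3.58 (adjusted p = 0.000189), dsl-1 by 2.00 (adjusted p = 0.0018) and dsl-2 by 1.25 (adjusted p = 0.0119), while the receptor gene glp-1 fell by 2.97 ± 0.45 (SE, adjusted p = 0.000387). The rises of dsl-1 and dsl-2 were not called with arrays centred on the added controls, and that of dsl-2 also not under the tags or without 4 h B (adjusted p = 0.0561). hop-1, a presenilin that cuts the activated receptor, fell by 4.07 ± 0.36 (SE, adjusted p = 3.76e-06).

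Large families of the nervous system lay mostly within background at both times. Of 1324 genes named as chemoreceptors 145 had a mean above background at either time, and 15 were higher and 4 lower, 1.13% and 0.302% against 7.08% and 9.71% of all genes. The list was made from gene names and holds 3 genes that are no chemoreceptors, srp-7, srgp-1 and srf-5. The count of 15 rises moved with single arrays (8 without 0 h C, 9 without 0 h B, 34 without 4 h A) and was 1 with arrays centred on the added controls. srlf-31 read 5.23, 5.59 and 5.65 at 0 h and 10.06, 10.22 and 10.41 at 4 h, and rose by 4.74 ± 0.17 (SE, adjusted p = 2.45e-09). Ion channels and receptors of nerve and muscle had 5 of 267 higher (1 without 0 h C, 3 without 0 h A or 0 h B, 11 without 4 h A) and 0 lower (1 without 0 h C), below both background shares. The 5 became 0 with arrays centred on the added controls. Of 111 neuropeptide and insulin genes 6 (5.4%) were higher (3 without 0 h B or 0 h C) and 2 (1.8%) lower (1 without 0 h A, 0 h B, 4 h A, 4 h B or 4 h C), below both background shares, with 3 higher under the tags and 1 after that centring. ins-2, an insulin-like gene, stood out at 3.15, 3.10 and 2.91 at 0 h and 9.69, 9.65 and 10.33 at 4 h, a rise of 6.83 ± 0.53 (SE, adjusted p = 1.32e-06). Intermediate filament genes had 0 calls among 17.

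Stress and apoptosis genes gave 8 rises (9.52%) and 15 falls (17.9%) among 84, against 7.08% and 9.71% of all genes. The 8 became 3 under the tags, 4 with arrays centred on the added controls and 5 without 0 h B or 0 h C. egl-1, the BH3-only activator of programmed cell death, read 3.20, 3.09 and 3.04 at 0 h and 7.38, 7.21 and 6.69 at 4 h, from below background to well above it, and rose by 3.98 ± 0.27 (SE, adjusted p = 3.69e-07). ttr-52, which marks dying cells for engulfment, rose by 4.07 ± 0.35 (SE, adjusted p = 3.32e-06). In redox and metal homeostasis 5 of 45 genes (11.1%) were higher and 7 (15.6%) lower, with 1 higher and 12 lower after centring on the added controls. Without single arrays 5 to 11 were lower. prdx-2, a peroxiredoxin, read 12.90, 12.99 and 12.97 at 0 h and 10.27, 9.70 and 9.96 at 4 h, and fell by 2.98 ± 0.30 (SE, adjusted p = 1.35e-05). gpx-1, a glutathione peroxidase, rose by 2.31 ± 0.22 (SE, adjusted p = 8.02e-06), not called after centring on the added controls. Of 201 detoxification genes 10 were lower and 6 higher, below both background shares, and 1 was higher after centring on the added controls. gst-44, a glutathione transferase, fell by 4.43 ± 0.46 (SE, adjusted p = 1.75e-05) and gst-20, of the same class, rose by 3.03 ± 0.46 (SE, adjusted p = 0.000425). alh-1, an aldehyde dehydrogenase, read 8.15, 8.71 and 8.53 at 0 h and 4.78, 5.03 and 4.48 at 4 h, and fell by 3.70 ± 0.51 (SE, adjusted p = 0.000185). Of 164 antimicrobial and digestive genes 10 (6.1%) were higher (6 without 0 h A, 0 h B or 4 h B) and 5 (3.05%) lower, below both background shares, with 4 higher after centring on the added controls. asp-4, an aspartyl protease of lysosomes, read 4.32, 4.61 and 4.17 at 0 h and 9.59, 9.57 and 9.07 at 4 h, and rose by 5.04 ± 0.31 (SE, adjusted p = 1.79e-07). Of 88 sperm protein genes 5 (5.68%) were higher (3 without 0 h A, 0 h C or 4 h B) and 2 (2.27%) lower, below both background shares, with 1 higher after that centring. Among them nspb-10 read 3.48, 3.76 and 3.23 at 0 h and 8.60, 7.58 and 8.38 at 4 h, a rise of 4.70 ± 0.29 (SE, adjusted p = 1.79e-07), and the other 4 rises were of 0.91 or less.

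Of the 17138 genes 11247 were in none of the lists, and of these 774 (6.88%) were higher and 1156 (10.3%) lower. Among those with a letters-and-number name the largest rise was mps-2, a potassium channel subunit, at 5.23, 4.55 and 4.63 at 0 h and 11.89, 11.70 and 11.57 at 4 h, a difference of 6.92 ± 0.31 (SE, adjusted p = 1.31e-08). epg-2, an adaptor of autophagy that acts on PGL granules, rose by 5.95 ± 0.30 (SE, adjusted p = 3.48e-08), and pxd-1 by 4.98 ± 0.27 (SE, adjusted p = 5.85e-08). cki-1, a Cip/Kip inhibitor that stops the cell cycle, read 5.16, 5.16 and 5.43 at 0 h and 10.27, 9.44 and 9.75 at 4 h, and rose by 4.57 ± 0.31 (SE, adjusted p = 3.94e-07). Its relative cki-2 fell by 1.63 ± 0.44 (SE, adjusted p = 0.021). ift-43, of the transport machinery of cilia, rose by 5.28 ± 0.23 (SE, adjusted p = 1.20e-08).

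On the falling side glb-1, a globin, read 10.17, 10.61 and 10.52 at 0 h and 3.10, 4.32 and 3.03 at 4 h, a fall of 6.96 ± 0.34 (SE, adjusted p = 2.73e-08), and trcs-1, a relative of arylacetamide deacetylases, fell by 6.59 ± 0.46 (SE, adjusted p = 4.97e-07). gna-2, which makes the sugar precursor of eggshell chitin, read 10.19, 10.30 and 9.85 at 0 h and 3.87, 4.58 and 3.82 at 4 h, and fell by 6.02 ± 0.33 (SE, adjusted p = 6.95e-08). era-1, a maternal RNA of the early embryo, fell by 6.26 ± 0.30 (SE, adjusted p = 2.31e-08). cdc-25.3, a phosphatase gene of the cdc class, fell by 5.07 ± 0.23 (SE, adjusted p = 1.36e-08), 1 of 5 lower among 13 measured cdc genes with 0 higher. In the fkb class of peptidyl-prolyl isomerases 3 of 8 genes rose and 0 fell, with fkb-7 up by 3.73 ± 0.22 (SE, adjusted p = 1.27e-07).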

How the data were processed

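Values are the log2 expression values of the deposited series matrix, which the authors produced by RMA, a step named without a version in the submitters' processing notes. RMA corrects background, sets the probes of all arrays to a common distribution and summarises them by probe set. A global loss or gain of RNA therefore cannot be read from the values. The deposited probe set values still differed in their upper range. Their 90th percentile was 7.09 to 7.43 on the 0 h arrays and 6.46 to 6.94 on the 4 h arrays. Whether this adds to the large falls was not tested. Total RNA was extracted with Trizol and hybridised as biotinylated cRNA, 1 colour per array, per the labels' protocols. Groups were taken from the titles. Arrays 1 h B and 1 h C have time tags of 2 h and 3 h, and the titles were followed. The tag conflict touches no array of 0 h or 4 h, only the shared estimate of spread.

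limma 3.58.1 in R 4.3.3 was fitted to all 15 arrays (lmFit, eBayes) with the contrast of 4 h minus 0 h, so that all 5 times share the spread. Adjusted p-values are Benjamini-Hochberg over 22548 probe sets, called under 0.05, and SE is limma's. Probe sets were named through GEO's platform annotation, updated through RefSeq's WBcel235 table, which was used for names and neighbouring genes only. A gene was read from 1 probe set, of those naming it alone the one brightest on average over the 15 arrays. Of 852 other probe sets of called genes, 500 gave the same call, 346 missed the threshold and 6 passed it with the opposite sign. The background mark of 3.71 is the highest single value, over all 15 arrays, of 26 control probe sets with no target in the sample. That value came from array 1 h B. A further control, PheX-3, was left out after its value was seen. Members and lists were chosen with earlier results of these data known. The rule for named genes took up to 5 rises and 5 falls of a list with the largest differences and separated arrays, uncalled members as examples, and the largest changes outside the lists. Other genes, families and classes were named after their values were seen. The number of arrays limits the precision: the median SE of a difference was 0.19 and its 90th percentile 0.44. Genes with near copies (histones, F-box and skr genes) can share signal by cross-hybridisation. Alternatives were the 6 arrays alone, the time tags, no 1 h B and C, other centrings, a filter on dim probe sets, an intensity trend, a replicate block, probe set means and leaving out each array.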

Additional observations from a re-analysis of the deposited data

How the results depend on the processing

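Of 15 alternative settings, 2 moved the number of probe sets called higher, 1603, by more than 1.5 times. It was 1023 with arrays 1 h B and 1 h C placed by their time tags and 313 with arrays centred on the added control RNAs, where rises made up 11.6% of calls. The number called lower, 2157, stayed between 1710 and 2382 in every setting, and without single arrays 1245 to 1583 were called higher. With arrays centred on their medians the median difference became -0.02, with 1260 higher and 2327 lower. Without dim probe sets, 9505 were tested, and list medians, taken relative to all genes, grew to 1.35 (linker histones and HMG proteins), 0.61 (ceh homeobox genes), 1.80 (F-box B), -0.97 (small RNA), 0.40 (junctions) and -1.26 (sugar and glycan), since members near background left the lists. That filter kept probe sets with a mean above the mark at 0 h or at 4 h, so members high at only 1 of the times stayed. The larger medians follow from the filter and are no support for these lists. Arrays with the same letter were not paired, as their deviations correlated across probe sets at -0.10, 0.07 and -0.17 (A, B and C). The fit with the replicate block called 1536 higher and 2119 lower. Of the genes named, gsp-4 and msp-63 changed sign on the added controls, to -0.31 (adjusted p = 0.666) and -0.62 (adjusted p = 0.375), and the cause was not tested. Of 233 genes followed through the settings 203 were called, and 167 of these kept their call and direction in all 15 settings. Many of them were named for large differences and separated arrays in these same data. Their count therefore does not stand for the 2877 called genes. Among genes not called, gln-1, gpd-2, gpd-3, hmp-1, ife-2, pha-4 and rpt-1 passed without arrays 1 h B and 1 h C (adjusted p from 0.00158 to 0.0285).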
